A study of Homo sapiens with 6 samples.

Results

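The antioxidant genes controlled by NRF2 were measured in prostate epithelial cells with and without a hairpin against PKCλ/ι. They comprise NFE2L2, the gene of NRF2 itself, and 8 of its well-known targets: NQO1, GCLM, GCLC, TXNRD1, ME1, SRXN1, HMOX1 and GPX2. Members were taken by gene symbol, through probe sets annotated with exactly 1 symbol, and each of the 9 had 1 such probe set among 18404 genes measured. The set was chosen with the differences between the groups of these arrays already known, so the members' values are a description and no test is given for them.

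PrEC cells, a line of immortalized epithelium from normal prostate, were kept in a growth medium for prostate epithelium, and their total RNA was measured. All 6 samples carried a hairpin: 3 carried shNT, the reference, and 3 carried a hairpin against PKCλ/ι, labelled shPKCi. The target, an atypical protein kinase C made from the PRKCI gene, takes part in epithelial polarity. Collection was 48 hours after plating, under basal conditions. Each sample was hybridised to 1 expression array, and the values are intensities normalised by the authors. The samples are described as biological replicates. Whether they came from separate cultures, whether each line is a clone or a pool, and how many hairpins were used is not given in the sources used here, so p-values measure only the spread between these samples.

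NRF2 is a transcription factor that the adaptor KEAP1 marks for degradation in unstressed cells. Oxidants and electrophiles modify KEAP1, NRF2 then accumulates, pairs with a small MAF protein and binds antioxidant response elements in its target genes, which BACH1 can occupy as a repressor. The targets make glutathione, recycle thioredoxin, supply NADPH and clear quinones, and in prostate as in other epithelia they protect against oxidative damage. NRF2 is controlled largely at the level of the protein, which these arrays do not measure.

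The core of the antioxidant response element, TGACNNNGC, was searched on both strands of RefSeq promoter windows (GRCh38.p14) that run from 250 bases before to 50 bases after a transcription start. Windows were matched by symbol for all members but HMOX1, with 2 starts each for NFE2L2 and TXNRD1. The core was found in GPX2, TXNRD1, ME1 and GCLM. It was not found as these letters in the windows of SRXN1, NQO1, GCLC or NFE2L2. Sequence beyond the windows was not searched, so these genes can hold the core elsewhere. Of 35116 windows of all genes, 13.3% held it. Counted by gene, as for the members, 2610 of 14230 genes tested with a window held it in any of their windows. The windows that hold the core are shown because they belong to the members with the largest differences between the groups. Each sequence is the 250 bases before the start, 5′ to 3′ on the gene's strand, with matches to the core in capitals. Capitals that begin with GC and end with TCA are matches on the other strand. The windows are chr14:64942746-64942995 (minus strand) for GPX2, chr12:104215529-104215778 and chr12:104286782-104287031 (plus strand) for the first and second TXNRD1 starts, chr6:83431052-83431301 (minus strand) for ME1 and chr1:93909431-93909680 (minus strand) for GCLM.
GPX2: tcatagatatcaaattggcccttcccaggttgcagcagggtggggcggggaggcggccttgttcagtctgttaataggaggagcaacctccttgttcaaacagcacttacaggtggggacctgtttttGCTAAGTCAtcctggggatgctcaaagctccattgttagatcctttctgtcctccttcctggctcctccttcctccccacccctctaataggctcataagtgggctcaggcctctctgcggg
TXNRD1 start 1: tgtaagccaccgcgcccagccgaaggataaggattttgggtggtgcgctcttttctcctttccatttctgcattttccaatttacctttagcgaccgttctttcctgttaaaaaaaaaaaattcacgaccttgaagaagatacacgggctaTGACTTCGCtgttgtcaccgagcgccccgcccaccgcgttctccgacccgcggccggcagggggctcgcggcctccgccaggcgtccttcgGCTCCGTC
TXNRD1 start 2: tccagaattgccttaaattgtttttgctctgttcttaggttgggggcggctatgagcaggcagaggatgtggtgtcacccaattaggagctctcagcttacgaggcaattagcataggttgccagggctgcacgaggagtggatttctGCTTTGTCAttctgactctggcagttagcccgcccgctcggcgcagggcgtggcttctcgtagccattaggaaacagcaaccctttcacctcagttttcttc
ME1: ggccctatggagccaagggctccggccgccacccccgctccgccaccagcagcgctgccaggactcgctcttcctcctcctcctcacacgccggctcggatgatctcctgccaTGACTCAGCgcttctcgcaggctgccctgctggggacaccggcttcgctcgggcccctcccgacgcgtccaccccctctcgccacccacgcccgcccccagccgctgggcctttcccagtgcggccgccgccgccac
GCLM: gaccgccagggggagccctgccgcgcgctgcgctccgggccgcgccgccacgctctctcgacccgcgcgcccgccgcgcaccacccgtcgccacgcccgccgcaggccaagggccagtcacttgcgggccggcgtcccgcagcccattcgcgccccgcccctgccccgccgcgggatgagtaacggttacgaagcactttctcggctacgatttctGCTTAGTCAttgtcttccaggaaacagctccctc

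In the gene's own or the opposite orientation, the match in GPX2 reads TGACTTAGC and lies between 122 and 114 bases before the start. That of ME1 reads TGACTCAGC and begins 137 bases before it. Within the windows of the 8 members that had one, only that of ME1 held the word TGACTCAGC. This form of the core with its open positions filled was found in 0.561% of all windows. The match of GCLM reads TGACTAAGC and lies between 34 and 26 bases before the start. The first TXNRD1 start holds TGACTTCGC, beginning 99 bases before it, and TGACGGAGC on the other strand. The latter match reaches the first transcribed base, which is not shown. The second TXNRD1 start holds TGACAAAGC, between 102 and 94 bases before it. ME1 has a further match, TGACGGTGC, after the start and outside the sequence shown. These matches are a description of the sequence and not measured binding.

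**Figure D1:**
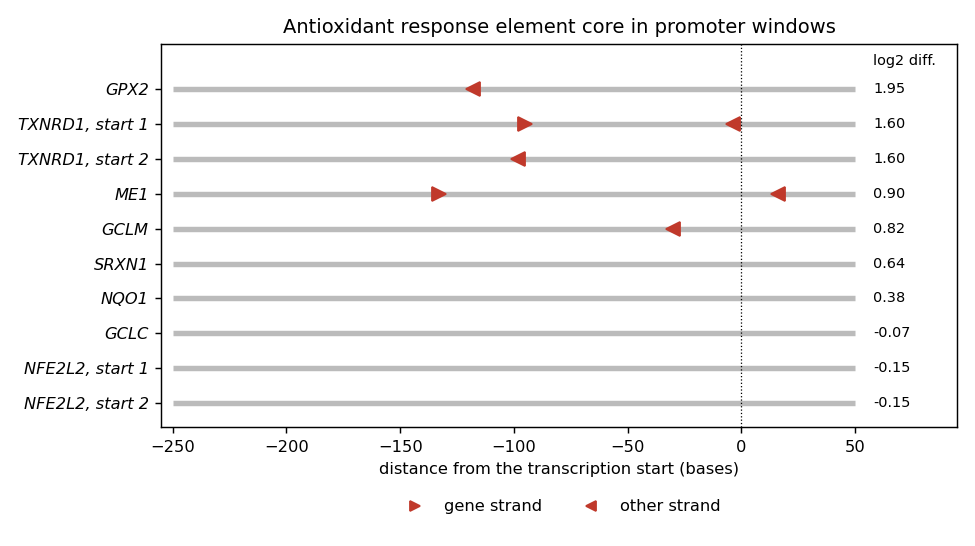
Positions of the antioxidant response element core in 10 promoter windows of 8 members, as distance from the transcription start in bases. Triangles are matches and point right on the gene strand and left on the other. The number at the right is the difference of mean log2 intensity, shPKCi minus shNT. The 4 genes with a match have differences from 0.82 to 1.95 and the 4 without have -0.15 to 0.64, in a set chosen on this contrast.

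The arrays were first checked against their labels. PRKCI intensities were 1428 to 1843 in shNT and 754 to 810 in shPKCi, 2.06-fold lower (limma adjusted p = 0.000279). Of 7 measured basal epithelial markers 6 lay above the median signal of all genes, with KRT5 and KRT14 at the 99.6th and 97.1th percentiles and KRT15 at the 34.0th. Of 7 luminal markers 3 did, the keratin genes KRT8, KRT18 and KRT19 (95.9th, 96.3th and 95.8th percentiles), while the secretory markers KLK3, KLK2, ACP3 and MSMB lay below the median. None of 6 endothelial and none of 7 blood cell markers lay above the median signal of all genes. Of 10 fibroblast and smooth muscle markers 3 did, and their summed intensity was 751 to 818 in shNT and 460.0 to 474 in shPKCi, with ACTA2 (-2.15 on the log2 scale) and 1 other marker falling; the part of this in the results was not tested. The summed intensity of the 7 basal markers was 11810 to 12910 in shNT and 9822 to 10005 in shPKCi; 5 of them fell, DSG3 the most (-1.42), and the part of this was not tested either. The array of shNT replicate 2 stood apart, with correlations of 0.974 to 0.989 with the other arrays against 0.982 to 0.996 among the other pairs. It is called the outlying shNT array here, and results are given with and without it where it bears on them.

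Of the 9 members, 6 were higher in every shPKCi array than in any shNT array, and 3 overlapped between the groups. None was lower without overlap. Across all genes tested, 18.0% were higher without overlap and 35.7% did not overlap in either direction, and since the members were chosen on this contrast nothing is read from the difference. The 6 were GPX2, TXNRD1, ME1, GCLM, SRXN1 and NQO1, and the overlapping genes were GCLC, HMOX1 and NFE2L2. The median difference of the 9 was 0.64 on the log2 scale, beside -0.02 for all genes. In these bulk samples, a larger share of cells that express a gene and more RNA of it per cell cannot be told apart.

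**Figure D2:**
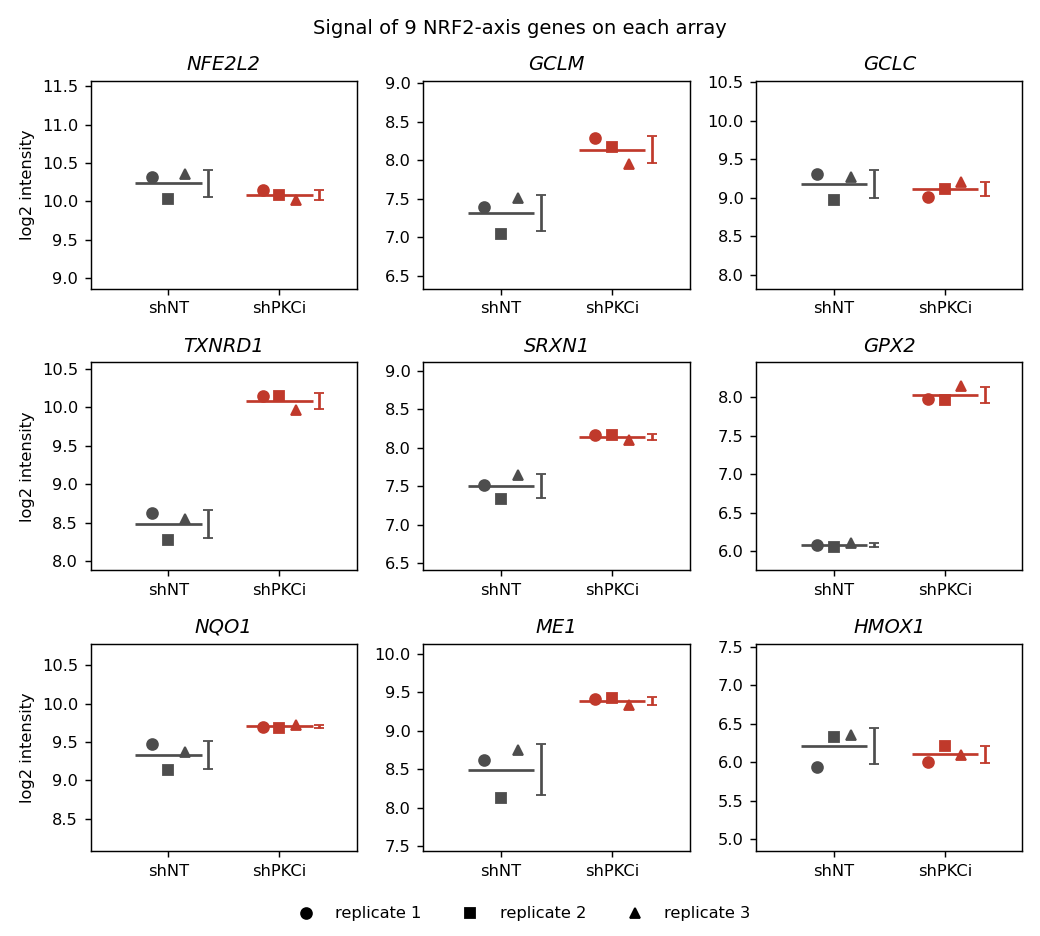
Log2 intensity of each of the 9 genes on each of the 6 arrays; every panel spans the same height in log2 units around its own level, horizontal lines are group means, bars at their right are SDs (n = 3) and symbols give the replicate number. TXNRD1 and GPX2 show the widest gaps between the groups, and the points of NFE2L2, GCLC and HMOX1 overlap.

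The transcript of NRF2 itself was not higher in the knockdown cells. With arrays in the order of their replicate numbers, here and for all later genes, NFE2L2 had intensities of 1276, 1045 and 1312 for shNT and of 1134, 1082 and 1036 for shPKCi. All 3 shPKCi arrays lay below shNT replicates 1 and 3, and the outlying shNT array lay among them. The difference of the log2 means, shPKCi minus shNT, was -0.15 (SE 0.11), from 10.23 ± 0.18 to 10.08 ± 0.07 (SD, n = 3). Without the outlying shNT array it was -0.26, a lowering of the mean that then came with no overlap. Fewer arrays separate more easily, and the share of all genes that did so without that array was not counted. Nothing is read from this separation.

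Glutathione synthesis begins with glutamate-cysteine ligase, whose catalytic subunit is encoded by GCLC and whose modifier subunit is encoded by GCLM. GCLM intensities were 168, 132 and 182 in shNT and 313, 288 and 247 in shPKCi. Every shPKCi array was above every shNT array, although the shPKCi arrays spread more for this gene than for SRXN1 or NQO1. GCLM was 1.77-fold higher, a log2 difference of 0.82 (SE 0.17), with log2 means of 7.31 ± 0.24 and 8.14 ± 0.17 (SD, n = 3).

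GCLC, which carries the active site, had intensities of 633, 501 and 615 in shNT and of 518, 554 and 592 in shPKCi. The shPKCi values lay above the outlying shNT array and below the other shNT arrays, with a log2 difference of -0.07 (SE 0.12) that was -0.17 without the outlying array. The ratio of GCLM to GCLC signal, which cancels any scaling common to an array, was 0.265, 0.263 and 0.295 in shNT and 0.605, 0.520 and 0.417 in shPKCi. It was thus higher in each shPKCi array, by 0.89 on the log2 scale (SE 0.17), and the ratio of the outlying shNT array was like that of shNT replicate 1. The ratio compares the arrays only and does not give the proportion of the subunits.

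TXNRD1 encodes the cytosolic thioredoxin reductase, a selenoprotein that passes electrons from NADPH to thioredoxin. Its intensities were 394, 311 and 376 in shNT and 1133, 1131 and 997 in shPKCi. The lowest shPKCi array was above the highest shNT array by more than the whole range of either group. TXNRD1 was 3.03-fold higher, a log2 difference of 1.60 (SE 0.12), with log2 means of 8.48 ± 0.18 and 10.08 ± 0.11 (SD, n = 3).

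SRXN1 encodes sulfiredoxin, which restores peroxiredoxins that have been overoxidised. It had intensities of 184, 162 and 201 in shNT and of 287, 288 and 275 in shPKCi. The shPKCi arrays lay close together and all above shNT. The gene was 1.56-fold higher, a log2 difference of 0.64 (SE 0.09).

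GPX2 encodes a glutathione peroxidase of epithelia that reduces hydrogen peroxide. Its intensities were 67.65, 66.6 and 68.7 in shNT and 252, 248 and 283 in shPKCi. The outlying shNT array did not differ from the other shNT arrays for this gene, whose log2 SD in shNT was 0.02. GPX2 had the largest difference of the 9 members, 1.95 on the log2 scale (SE 0.06) or 3.85-fold. Its shNT signal was not shown to lie above background, so the fold can be understated.

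NQO1 encodes the quinone reductase that is often used as a readout of NRF2 activity. Its intensities were 714, 561 and 663 in shNT and 832, 822 and 846 in shPKCi. The groups did not overlap, but the difference was the smallest of the 6, 0.38 on the log2 scale (SE 0.10) or 1.30-fold. Without the outlying shNT array it was 0.28, or 1.21-fold.

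ME1, the cytosolic malic enzyme, makes NADPH from malate. Intensities were 394, 278 and 429 in shNT and 679.8, 690.0 and 645 in shPKCi. All shPKCi arrays were higher than shNT, and the shNT arrays spread widely, with a log2 SD of 0.33 against 0.05 in shPKCi. ME1 was 1.86-fold higher, a log2 difference of 0.90 (SE 0.19), and 1.63-fold higher without the outlying shNT array.

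HMOX1, the inducible haem oxygenase, which BACH1 represses and haem or stress induces, had the dimmest signal relative to other genes, at the 50.2th percentile. Its intensities were 61.5, 80.5 and 82.05 in shNT and 64.1, 74.5 and 68.6 in shPKCi. The groups overlapped and the lowest array of the 6 was an shNT array. The log2 difference was -0.10 (SE 0.15).

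In the outlying shNT array, 8 of the 9 members had their lowest shNT value, HMOX1 being the exception, where 36.7% of all genes did. The members' differences were therefore read without it. After median centring and after cyclic loess, all 6 remained above shNT without overlap; leaving out an array cannot bring groups that are apart into overlap. Without that array the log2 differences were 1.94 for GPX2, 1.50 for TXNRD1, 0.71 for ME1, 0.69 for GCLM, 0.56 for SRXN1 and 0.28 for NQO1. Those of GCLC and HMOX1 were -0.17 and -0.04, and GCLC, like NFE2L2, was then lower in shPKCi without overlap. The share of all genes that were so in that setting was not counted, so nothing is read from this. After cyclic loess between arrays, the differences of the 6 ran from 0.28 for NQO1 to 1.95 for GPX2, so the order from GPX2 down to NQO1 was kept in both. ME1 and GCLM, as neighbours in that order, differed by less than their SEs.

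**Figure D3:**
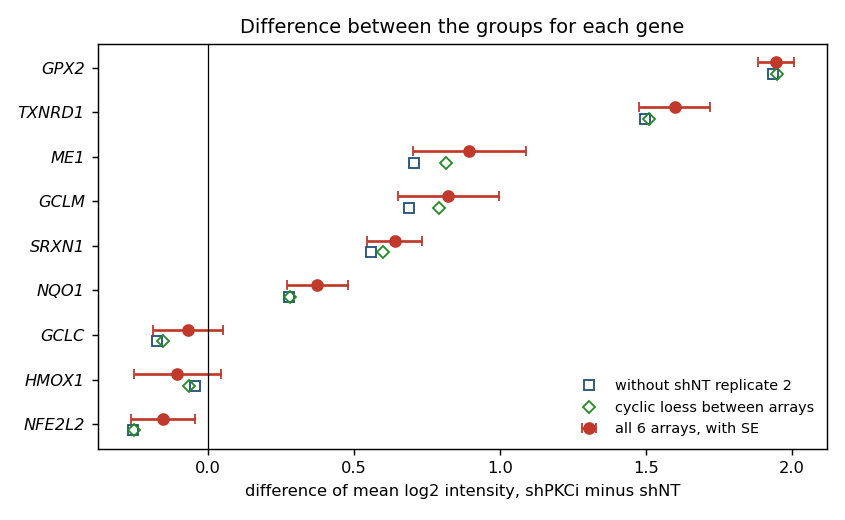
Difference of mean log2 intensity, shPKCi minus shNT, for each of the 9 genes, with its SE from 3 arrays a group (filled circles), without shNT replicate 2 (open squares) and after cyclic loess between arrays (open diamonds). GPX2, TXNRD1, ME1, GCLM, SRXN1 and NQO1 lie right of 0 in every version, and GCLC, HMOX1 and NFE2L2 lie left of it.

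Set beside the promoter sequences, the 4 members with a core match had log2 differences of 0.82 to 1.95. The 4 with a window but no match had -0.15 to 0.64. The members were chosen on this contrast, so nothing is read from this split. The gap between the lowest of the first and the highest of the second, GCLM and SRXN1, was about the SE of the GCLM difference. Across all genes the core went with little: of 2610 genes tested that hold it in a window, 11.0% were higher in shPKCi at a limma adjusted p under 0.05, against 10.1% of 11620 genes without it. The shares that were lower were 9.39% and 9.35%.

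By Pearson correlation of log2 values over the 6 arrays, the genes most like NFE2L2 were RPS6 (r = 0.996), PALB2 (0.994) and PDLIM3 (0.994). Those most like NQO1 were LIG3 (0.998), CPSF2 (0.998) and ELOVL1 (0.996). These are descriptions over 6 arrays that share the group difference and the low values of the outlying shNT array.

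The wider NRF2 system was read from 113 further genes in 8 lists by role, of which 103 were measured. For these the test of the whole table is given. The lists too were chosen with earlier results of these data known, so nothing is read from their share of called genes. At a limma adjusted p under 0.05, 10 rose and 23 fell, together 32.0%, beside 18.5% of all genes (9.55% higher and 8.95% lower). These shares were not matched for signal. Fitted and adjusted alone, the genes at or above the median signal gave 1985 higher and 1580 lower, beside 1758 and 1648 over all genes. The share of these brighter genes called in the main fit was not counted. The split moved under median centring of the arrays, for the pathway genes and for all genes. Then 15 pathway genes rose and 18 fell, beside 2170 higher and 1321 lower over all genes. After cyclic loess 10 rose and 23 fell, beside 1735 higher and 1858 lower over all genes. Without the outlying shNT array 12 rose and 22 fell, beside 1935 higher and 1959 lower over all genes. The median log2 fold change of the 103 was -0.03, or 0.04 without the outlying shNT array, beside -0.02 for all genes.

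**Figure D4:**
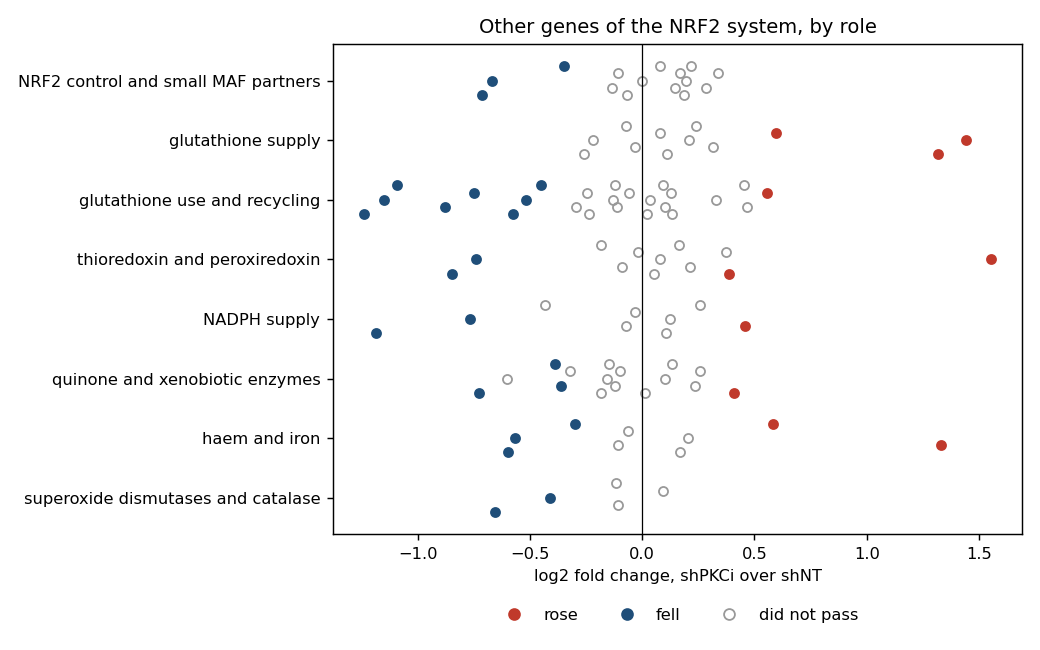
Log2 fold change, shPKCi over shNT, of 103 further genes of the NRF2 system in 8 lists by role; filled points passed a limma adjusted p of 0.05 (red rose, blue fell) and open points did not, and the vertical spread within a list carries no value. Glutathione supply holds 3 risers and no faller, while glutathione use and recycling holds 8 fallers and 1 riser. Among those fallers are mu-class glutathione transferase genes, which may share probes.

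Among the genes that control NRF2, both BACH repressors fell. BACH1, which competes with NRF2 at antioxidant response elements, had intensities of 281, 272 and 361 in shNT and 177, 195 and 198 in shPKCi. No shPKCi array reached the lowest shNT array, and BACH1 was 1.59-fold lower (log2 fold change -0.67, SE 0.13, limma adjusted p = 0.00525). BACH2 fell by 0.71 (adjusted p = 0.00108). The signal of BACH2 was dim, at the 47.9th percentile, and was not shown to lie above background. KEAP1, the adaptor that targets NRF2 for degradation, had intensities of 127, 149 and 151 in shNT and 159, 166 and 171 in shPKCi; the groups did not overlap but the log2 fold change of 0.22 did not pass (adjusted p = 0.200).

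The small MAF partner genes MAFF and MAFG had log2 fold changes of 0.08 and -0.07, and neither passed. Other probe sets of MAFG gave -0.30 and 0.03. NFE2L1, a relative of NRF2, had -0.11, and SQSTM1, whose protein p62 binds KEAP1, had 0.19; neither passed (adjusted p = 0.490 and 0.230). BTRC, a ubiquitin ligase subunit that also recognises NRF2, fell by 0.35 (adjusted p = 0.0496). That call was lost in 5 of 6 fits without 1 array, all but the fit without shNT replicate 2 (adjusted p from 0.0636 without shPKCi replicate 3 to 0.186 without shPKCi replicate 1), and under median centring of the arrays (0.0999). Of the 15 measured genes of this list none rose and 3 fell. Without the outlying shNT array 1 rose, PGAM5 (named after its value was seen), whose log2 fold change of 0.34 had an adjusted p of 0.0501 with all arrays and 0.0158 without that one.

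In the list on glutathione supply, which holds cystine transport, synthesis, breakdown and export genes, 3 of 12 measured genes rose and none fell; without the outlying shNT array 4 rose. SLC7A11, the cystine transporter, had intensities of 62.9, 58.7 and 78.5 in shNT and 168, 182 and 190.2 in shPKCi. Its lowest shPKCi array was above its highest shNT array by more than the shNT range, and it was 2.72-fold higher (log2 fold change 1.44, SE 0.12, limma adjusted p = 6.86e-05). SLC3A2, its heavy-chain partner, rose by 0.60 and CHAC2, a glutathione-degrading cyclotransferase, by 1.32. The glutathione synthetase gene GSS, which acts after GCLC and GCLM, had a log2 fold change of -0.22 and did not pass (adjusted p = 0.147). SLC7A11 and SLC3A2 are also amino acid stress genes.

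Of 25 measured genes of glutathione use and recycling, 8 fell and 1, GLRX2, rose (named after its value was seen), and 9 fell without the outlying shNT array. GSTM1, a mu-class glutathione transferase gene, had intensities of 323, 265 and 312 in shNT and 129, 122 and 129 in shPKCi, so that every shPKCi array was under every shNT array. It was 2.36-fold lower (limma adjusted p = 6.45e-05), and GSTM4 was 2.22-fold lower. Transcripts of the closely related mu-class genes may share probes, so their separate values are uncertain. Other mu-class genes of the list also fell, so the 8 fallers may not be separate signals. GSR, which regenerates glutathione, had a log2 fold change of 0.13 and did not pass (adjusted p = 0.397).

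GPX4 and GPX1 encode other glutathione peroxidases. GPX4, which reduces lipid peroxides, fell by 0.45 on the log2 scale (limma adjusted p = 0.0192), a call lost without shNT replicate 1 (adjusted p = 0.0618) and without shPKCi replicates 1, 2 or 3 (0.0701, 0.0614 and 0.0651). GPX1, the most widespread form, was at 0.03 on that scale (adjusted p = 0.899), and its dimmer probe set gave -0.21. The differences between these genes and GPX2 were not tested.

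In the thioredoxin and peroxiredoxin list, 2 of 12 genes rose and 2 fell. TXN, the substrate of TXNRD1, had a log2 fold change of 0.21 and did not pass (limma adjusted p = 0.457). TXNIP, which binds and inhibits thioredoxin, had intensities of 109, 135 and 114 in shNT and 319, 351 and 379 in shPKCi, with no overlap. It rose 2.94-fold (adjusted p = 3.08e-05).

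PRDX1, a peroxiredoxin that sulfiredoxin repairs, rose by 0.39 (limma adjusted p = 0.0174). The call of PRDX1 was lost without shNT replicate 3 (adjusted p = 0.0526) and without shPKCi replicates 1, 2 or 3 (0.0727, 0.0651 and 0.0551). The sestrin genes SESN1 and SESN3, known as p53 and FOXO targets, fell by 0.85 and 0.74.

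Among 9 measured genes of NADPH supply beside ME1, 1 rose and 2 fell. The mitochondrial isocitrate dehydrogenase gene IDH2 had intensities of 581, 658 and 596 in shNT and 276, 239.8 and 292 in shPKCi, and the groups were far apart. IDH2 was 2.27-fold lower (limma adjusted p = 0.000107), and NNT, the transhydrogenase of the inner mitochondrial membrane, fell by 0.77. The riser was IDH1, the cytosolic form, by 0.46 (named after its value was seen; adjusted p = 0.0198, and 0.0619, 0.0831 and 0.0569 without shPKCi replicates 1, 2 and 3). PGD of the pentose phosphate pathway had 0.12 and did not pass (adjusted p = 0.475).

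The quinone and xenobiotic enzymes beside NQO1 gave 1 riser and 3 fallers among 16 measured, and 1 and 1 without the outlying shNT array. PTGR1, a reductase of prostaglandins and leukotrienes, fell by 0.72 (limma adjusted p = 0.0053). TRIM16 rose by 0.41 (adjusted p = 0.0166), which was lost without shNT replicate 3 (0.0593) and without shPKCi replicates 1 or 3 (0.0593 and 0.0706). NQO2, the relative of NQO1, had -0.15, ALDH3A1 had -0.10 and OSGIN1 had 0.01, none of which passed. AKR1C1 had 0.26 with adjusted p = 0.132, and its dimmer probe set gave -0.40. AKR1C genes are near-identical in sequence, so these values are uncertain.

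In the haem and iron list, 2 of 9 genes rose and 3 fell. TFRC, the transferrin receptor, had intensities of 833, 691 and 904 in shNT and 1979.6, 2179 and 1918 in shPKCi. It was 2.51-fold higher (limma adjusted p = 9.57e-05), with all shPKCi arrays above shNT. HMOX2, the constitutive haem oxygenase, rose by 0.58 (named after its value was seen), while BLVRB, a biliverdin reductase, fell by 0.60. The ferritin light chain gene FTL fell by 0.30 (adjusted p = 0.0461), a call that was lost in 5 of 6 fits without 1 array, all but that without shNT replicate 2 (adjusted p from 0.107 without shNT replicate 3 to 0.141 without shPKCi replicate 2), and with arrays centred on the median (0.110).

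In the list of superoxide dismutases, their copper chaperone and catalase, 2 of 5 genes fell and none rose. SOD2, the mitochondrial superoxide dismutase and also a target of NF-kappaB, had intensities of 2519, 2664 and 2502 in shNT and 1710.2, 1641 and 1527 in shPKCi. Every shPKCi array was lower, and SOD2 was 1.58-fold lower (limma adjusted p = 0.00133). Catalase, CAT, fell by 0.41 (adjusted p = 0.0281), a call lost without shNT replicates 1 or 3 (0.0833 and 0.0783) and without shPKCi replicates 1 or 2 (0.114 and 0.126). The cytosolic dismutase gene SOD1 had 0.09 and did not pass.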

How the data were processed

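Biotin-labelled total RNA of 6 samples was measured on 6 arrays, per the labels. The authors deposited linear intensities of 32321 probe sets. RMA, which corrects background, normalises and summarises probes, is named in the submitters' processing notes, while version, software and build are not given in the sources used here. Since RMA gives log2 values, a conversion back to a linear scale was inferred. Folds of very dim or very bright genes can be understated, and no detection calls were used here. Arrays were grouped by title.

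Intensities were transformed to log2. The platform annotation gave 19158 probe sets 1 symbol, 1388 several and listed no name for 11775; an Entrez identifier was found in RefSeq for 19128 of those with 1. Each of 18404 genes took its brightest probe set, with no filter on low values. Genes were compared with limma 3.58.1 in R 4.3.3, with Benjamini-Hochberg adjustment over all genes, a threshold of 0.05 and no covariate; the fit was tested on simulated data. Member SEs come from the SDs of the 2 groups. For arrays with equal replicate numbers, correlations of their deviations from group means were 0.12, -0.06 and -0.18. Between unequal numbers they ran from -0.17 to 0.21. These values cannot exclude a shared culture or day, and the main fit used no pairing.

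Members and lists were chosen with earlier results of these data known. The naming rule took all members, 26 pathway genes whatever their values (23 of them measured), the 2 further genes of each list with the largest change past the threshold, and the 3 genes most like NFE2L2 and NQO1. Genes outside the rule are marked as such where they are named. Of the 113 listed pathway genes, 10 were not analysed here. Tried as alternatives were leaving out each array, a replicate block, median centring, cyclic loess, 2 signal filters, the mean of probe sets, trended robust variance and array weights.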

Additional observations from a re-analysis of the deposited data

How the results depend on the processing

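Alternatives were run on the counts over all genes, the counts of pathway genes, the 9 members and 41 named pathway genes. The differences of the 9 members moved by less than their replicate SD in all 72 alternative values. For fits without 1 array this was bound to hold, since dropping 1 array of a group cannot move a difference by that SD. Median centring shifted all members by the same amount, which was below each SD. Only cyclic loess could move the members separately, so little is read from this count. The mean of probe sets, which cannot differ for genes with 1 probe set, is not counted. The count of 10 pathway genes that rose became 16 among genes at or above the median signal and 16 with a trended robust variance, and ran from 7 to 12 when 1 array was left out; the count of 23 that fell ran from 16 to 22. Over all genes, leaving out 1 array gave 997 to 1935 higher and 1048 to 1959 lower; the cause was not tested, beyond the fewer arrays in each fit. With the replicate number as a block, 10 pathway genes rose and 18 fell, and 1537 genes were higher and 1441 lower over all genes. Whether arrays with equal numbers share more than the number is not known.

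Of 570 alternative values of the named pathway genes, 517 kept direction and call, 32 lost the call, 6 gained it and 15 turned sign. The lost calls belong to BTRC, GPX4, PRDX1, TRIM16, FTL, CAT and IDH1, the gained calls to PGAM5 (adjusted p from 0.00904 with array weights to 0.0330 above the lower quartile of signal), and the block ended those of BTRC (adjusted p = 0.0725) and FTL (adjusted p = 0.107). Sign changes were limited to genes that did not pass. With 1 array left out, MAFF ran from -0.082 to 0.19, GPX1 from -0.067 to 0.13, ALDH3A1 from -0.22 to 0.038, OSGIN1 from -0.14 to 0.19 and SOD1 from -0.0085 to 0.20. MAFG was 0.0069 with array weights. After cyclic loess GPX1 was -0.050 and SOD1 -0.011, and as the mean of probe sets GPX1 was -0.088 and AKR1C1 -0.069. The median of the pathway genes changed sign too, to 0.04 without shNT replicate 2, 0.02 with median centring, 0.02 with array weights and 0.00074 above the median signal. Since no detection calls were used, the signal of the dimmer members, such as HMOX1 in all arrays and GPX2 in shNT, was not shown to lie above background.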
